A study of Homo sapiens with 24 samples.

Results

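RNA was sequenced from WT ER T-47D cells after transfection of a miR-331-3p mimic or of a mimic negative control. The groups were chosen as the miR-331-3p and negative control columns of the WT count table, which hold 1 library of each of 2 clones, D1 and D4. They make up 4 of the 24 libraries of the series, and all 26364 genes of the tables were considered, of which 15140 passed the filter on low counts and were tested. T-47D is an established ER-positive human breast cancer cell line. Its clones carry WT, Y537S or D538G ESR1, the gene of estrogen receptor α (ER), and WT here means that the receptor gene was not mutated. Cells in every group used here were kept in hormone-deprived medium for 4 days before plating, were transfected at 10 nM with a mimic or a control, and were lysed 24 h later. Each library came from a single clone, and the 2 clones of a genotype served as biological duplicates, so each spread below is that between clones. For comparison, WT cells given a mimic of miR-301b-3p or of miR-181c-5p supplied 4 libraries, and Y537S cells given the miR-331-3p mimic or the negative control supplied 4 more.

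A miRNA is a short RNA that guides an Argonaute protein to messenger RNAs, mostly by pairing of its seed, bases 2 to 8, with a site in the 3′UTR. The TNRC6 proteins that bind Argonaute then recruit the enzymes that shorten the poly(A) tail and remove the cap, and the messenger is translated less and decays. A mimic is a synthetic double-stranded RNA that loads a chosen mature miRNA into Argonaute, often far above its natural level. miR-331-3p has been reported to act on the messengers of the receptor kinase ERBB2, of the hydroxylase DOHH that matures the translation factor eIF5A, of the cell cycle transcription factor E2F1, of the AKT phosphatase PHLPP1 and of the co-receptor NRP2.

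The mature sequence of the transfected miRNA is shown first because the sites below are read from it. It is given from RefSeq (GRCh38.p14, chr12:95308480-95308500, plus strand) with its seed in capitals, beside the arms of the other 2 mimics. The seed of miR-331-3p holds 6 G or C in 7 bases, against 3 and 2 in the other 2 seeds, and no 2 of the 3 share a seed.
hsa-miR-331-3p: gCCCCUGGgccuauccuagaa
hsa-miR-301b-3p: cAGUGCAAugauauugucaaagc
hsa-miR-181c-5p: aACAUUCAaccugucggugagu

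A site complementary to the seed reads CCAGGGG (7mer-m8), and with an A after it CCAGGGGA (8mer). The shorter forms are CAGGGGA (7mer-A1) and CAGGGG (6mer), and each longer form contains a shorter one. They were searched on the transcript strand of 1 transcript per gene in GENCODE (GRCh37, the build of the counts), and 15.4% of the 13293 tested genes with an annotated 3′UTR held a 7mer-m8 or 8mer there. The sites of the 4 reported targets that were expressed are shown first, as GRCh37 sequence with the site in capitals. A match is a description of the sequence and not a measured binding site.
ERBB2 8mer (chr17:37884386-37884406, plus strand): cctccgaccacttCCAGGGGA
ERBB2 7mer-m8 (chr17:37884806-37884826, plus strand): atgaaataaagacCCAGGGGg
DOHH 8mer (chr19:3491175-3491195, minus strand): attgcgagggaagCCAGGGGA
DOHH 8mer (chr19:3491152-3491172, minus strand): atcgcgagggaagCCAGGGGA
DOHH 8mer (chr19:3491129-3491149, minus strand): atcgcgagggaagCCAGGGGA
DOHH 8mer (chr19:3491106-3491126, minus strand): atcgcgagggaagCCAGGGGA
DOHH 8mer (chr19:3491060-3491080, minus strand): atcgcgaggggagCCAGGGGA
DOHH 7mer-m8 (chr19:3491037-3491057, minus strand): atcgcgagggaagCCAGGGGc
PHLPP1 7mer-m8 (chr18:60646726-60646746, plus strand): ggctcacattaaaCCAGGGGt
E2F1 7mer-m8 (chr20:32263737-32263757, minus strand): gggtgggccctctCCAGGGGg
The 5 DOHH 8mers and its 7mer-m8 lie in a run of near-identical repeats of the 3′UTR. The next set are the 8mer sites of the 8 genes with such a site that fell most after the mimic in WT cells.
ARHGEF37 8mer (chr5:149014095-149014115, plus strand): ggtttctcatagaCCAGGGGA
ARHGEF37 8mer (chr5:149014170-149014190, plus strand): gcctgtattttctCCAGGGGA
CEP57 8mer (chr11:95564599-95564619, plus strand): atttaaatggaaaCCAGGGGA
DNAJC14 8mer (chr12:56214798-56214818, minus strand): tgactatttaaagCCAGGGGA
ELOVL7 8mer (chr5:60049380-60049400, minus strand): gcacagagaatatCCAGGGGA
DESI1 8mer (chr22:41996991-41997011, minus strand): tcagagctaacaaCCAGGGGA
ZCCHC24 8mer (chr10:81143723-81143743, minus strand): gagggccaggagcCCAGGGGA
TXLNA 8mer (chr1:32663281-32663301, plus strand): gctagcttttcctCCAGGGGA
SLX4IP 8mer (chr20:10605953-10605973, plus strand): agtaataagtaacCCAGGGGA
The last set are the 7mer-m8 sites of the 3 genes among the 12 largest falls that had this form as their best site.
SCML2 7mer-m8 (chrX:18257678-18257698, minus strand): aataaaatattcaCCAGGGGc
IL13RA1 7mer-m8 (chrX:117926928-117926948, plus strand): gcacagaccccttCCAGGGGt
RPA2 7mer-m8 (chr1:28218584-28218604, minus strand): tgcatatgtctggCCAGGGGg
RPA2 7mer-m8 (chr1:28218126-28218146, minus strand): tgcggtagtgcctCCAGGGGc

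The miR-331 libraries held 41047606 and 38890804 counts in clones D1 and D4, and the control libraries 36416281 and 33451179. The values were counts of reads per gene as the authors deposited them, and levels are given as CPM, counts scaled to a common library size with the effective library sizes. All 14 luminal breast markers were tested, with summed levels of 13820 to 15710 CPM in the 4 libraries. The basal list summed to 19.0 to 21.8 CPM, the immune list to 4.66 to 6.41 CPM and the endothelial list to 0.55 to 1.32 CPM. The fibroblast list summed to 51.8 and 53.8 CPM in the control and to 73.0 and 60.8 CPM in the miR-331 libraries, nearly all of it COL1A1, and 2 of its 9 markers had no count. The part of these markers in the results was not tested. In bulk samples such as these, fewer cells of a type and less RNA per cell cannot be told apart.

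The comparison of the mimic with its control asks which transcripts change when miR-331-3p is raised in cells without an ESR1 mutation. Of 15140 genes tested, 3755 (24.8%) were called at an adjusted p under 0.05. Among them 2149 rose (14.2% of genes tested) and 1606 fell (10.6%). Every called gene moved the same way in both clones. The changes were small: the median log2 fold change was 0.44 among genes that rose and -0.33 among genes that fell, 85 genes rose and 30 fell by at least 1 on the log2 scale, and the median over all genes tested was -0.0022. Across the 10057 genes whose mean level reached 3 log2 CPM, the fold changes of clones D1 and D4, which share no library, had a Pearson r of 0.84, and across all genes tested it was 0.41. These are descriptions over genes, which are not independent replicates. With 2 against 2 libraries no permutation test can go below p = 0.333, so calls rest on the model fitted across genes. Without the miR-331 library of clone D1 1550 genes were called, and without that of clone D4 2305.

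**Figure D1:**
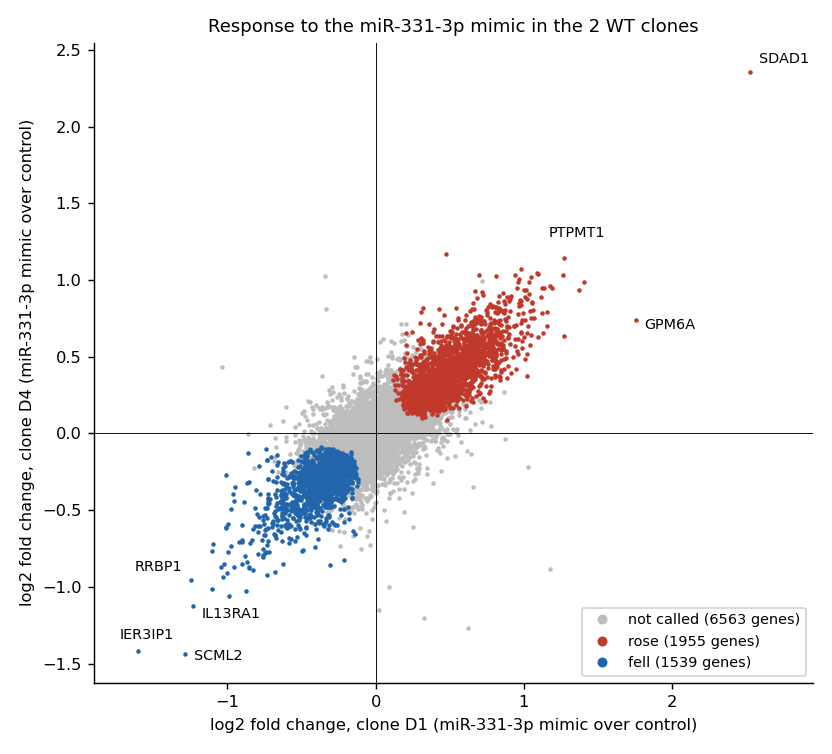
Each point is a gene whose mean level reached 3 log2 CPM, with its log2 fold change (miR-331-3p mimic over negative control) in clone D1 on the x axis and in clone D4 on the y axis; red genes rose, blue genes fell and grey genes were not called. The called genes lie along the diagonal, with SDAD1 far above the others at 2.52 and 2.36 and IER3IP1 lowest in clone D1 at -1.60.

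The 12 largest falls ran from -1.51 to -0.94 on the log2 scale, with adjusted p between 1.38e-05 and 0.000357. In all 12 both miR-331 libraries lay below both control libraries, which their choice as the largest called falls made likely. IER3IP1, a small endoplasmic reticulum protein gene (chr18:44679205-44702735), had 14.7 and 17.5 CPM in the miR-331 libraries of clones D1 and D4 and 44.9 and 46.9 CPM in the controls. Its log2 fold change was -1.51 ± 0.10 (SE, n = 2 per group; adjusted p = 3.39e-05). With miR-301b IER3IP1 had 24.9 and 17.5 CPM, and was also called lower than the same controls (-1.13, adjusted p = 0.00605). SCML2, a Polycomb group protein, had 4.90 and 5.20 CPM against 12.0 and 14.2 CPM (-1.38 ± 0.16). IL13RA1, a chain of the IL-13 receptor, had 33.5 and 35.4 CPM against 78.8 and 77.2 CPM (-1.18 ± 0.07, adjusted p = 1.51e-05). RRBP1, the ribosome-binding protein of the rough endoplasmic reticulum, had 76.7 and 95.1 CPM against 182 and 185 CPM (-1.10 ± 0.091). In RRBP1 the gap between the clones within the mimic group was wider than in the other 3 genes, yet the groups stayed far apart.

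SUDS3, a subunit of the Sin3 deacetylase complex, had 97.0 and 102 CPM after the mimic and 209 and 207 CPM in the control (-1.06 ± 0.061, adjusted p = 1.38e-05). RPA2, a subunit of the single-strand DNA-binding protein RPA, had 16.8 and 17.2 CPM against 33.4 and 36.0 CPM (-1.03 ± 0.093). NEDD1, which brings γ-tubulin to the spindle and centrosome, had 19.8 and 21.9 CPM against 40.4 and 42.1 CPM (-0.99 ± 0.091). In these 3 genes both clones fell by a like amount. The other 5 were BRWD3 (-0.96), ARHGAP18 (-0.96), ARHGEF37 (-0.96), CEP57 (-0.94) and MMADHC, a vitamin B12 trafficking gene (-0.94). CEP57 is a centrosomal protein.

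Of these 12 genes, 5 held a 7mer-m8 or 8mer in the 3′UTR of the chosen transcript, against 15.4% of all tested genes. ARHGEF37 had 3 such sites, RPA2 had 2, and SCML2, IL13RA1 and CEP57 had 1 each. RRBP1 had none in its 3′UTR and 2 in its coding sequence. The other 6 (IER3IP1, SUDS3, NEDD1, BRWD3, ARHGAP18 and MMADHC) held CCAGGGG in no annotated GENCODE transcript, while 43.3% of tested genes held it in at least 1 transcript, counted over its whole length. The median GC content of the 12 genes was 39.7%, below the 48.7% median of all tested genes. In Y537S cells, whose libraries are separate, all 12 were below their control and 11 were called lower, against 15.8% of all genes tested there. RPA2 was the one not called, at -0.62 ± 0.20 (adjusted p = 0.063). Against the same WT controls 3 of the 12 were also called lower with miR-301b (IER3IP1, RPA2 and NEDD1), beside 3.87% of all genes. With miR-181c 4 were (ARHGAP18, SUDS3, SCML2 and ARHGEF37), beside 8.28%. ARHGAP18 was at -1.002 with miR-181c and -0.96 with miR-331. Compared with the other mimics it alone of the 12 was not called lower (-0.36, adjusted p = 0.121). That comparison uses the miR-331 libraries by which the 12 were chosen.

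**Figure D2:**
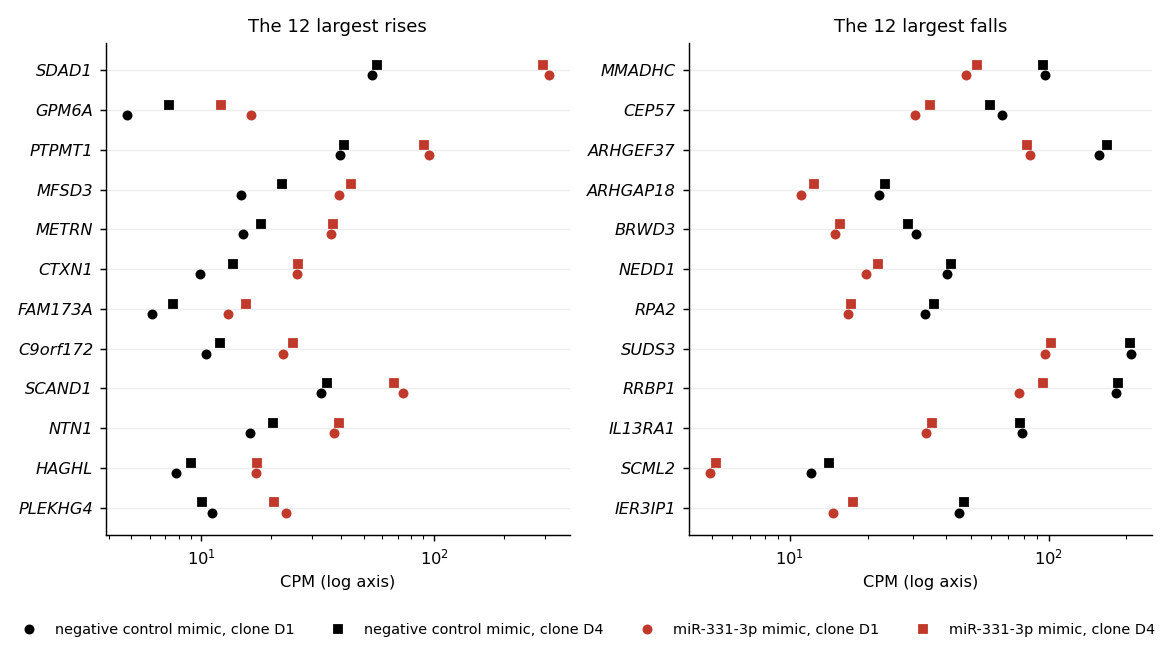
Levels in CPM on a log axis for the 12 genes that rose most (left) and the 12 that fell most (right) after the miR-331-3p mimic in WT cells; circles are clone D1, squares clone D4, black the negative control and red the mimic. In all 24 genes the 2 red points lie on one side of the 2 black points, and the genes were chosen for large called changes.

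The 12 largest rises ran from 1.03 to 2.44, with adjusted p between 2.12e-08 and 0.00209. Again the groups did not overlap in any of them, which the choice of genes made likely. SDAD1, a nuclear protein of 60S ribosome assembly (chr4:76862103-76912115), stood apart. It had 311 and 293 CPM in the miR-331 libraries and 54.1 and 57.1 CPM in the controls, a log2 fold change of 2.44 ± 0.066 (adjusted p = 2.12e-08). The other WT mimics, compared with the same 2 control libraries, gave 153 and 112 CPM (miR-301b) and 209 and 180.8 CPM (miR-181c). In Y537S cells the control libraries already had 279.5 and 267 CPM and the miR-331 libraries 255 and 257 CPM. The low values of SDAD1 were thus those of the WT control libraries, in both clones. SDAD1 was also higher with miR-331 than with the other WT mimics, a comparison without control libraries (0.90 ± 0.10, adjusted p = 0.00102).

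GPM6A, a neuronal membrane glycoprotein gene, had 16.3 and 12.2 CPM after the mimic and 4.79 and 7.27 CPM in the control (1.24 ± 0.21), with a change in clone D1 of 1.75 and in clone D4 of 0.74. PTPMT1, a mitochondrial phosphatase of cardiolipin synthesis, had 95.3 and 91.0 CPM against 39.6 and 41.2 CPM (1.201 ± 0.068). PTPMT1 was at 87.0 and 99.8 CPM with miR-301b and 102 and 97.6 CPM with miR-181c, so that the 6 mimic libraries of WT cells lay together above the 2 controls. It rose as well in Y537S cells, from 28.8 and 38.4 to 137 and 124 CPM (1.98 ± 0.17, adjusted p = 0.00605). The remaining 9 were MFSD3 (1.17), METRN (1.14), CTXN1 (1.14), FAM173A (1.07), C9orf172 (1.06), SCAND1 (1.06), NTN1 (1.06), HAGHL (1.04) and PLEKHG4 (1.03). METRN encodes a secreted neurotrophic factor and NTN1 the guidance protein netrin-1. Transcripts of the 12 genes had a median GC content of 67.3%. Among them, 4 held a 7mer-m8 or 8mer in the 3′UTR (C9orf172, METRN, NTN1 and PTPMT1), so such sites were present among the rises too. With the GC trend of each library removed (below), 7 stayed called, and MFSD3 (0.54, adjusted p = 0.0523), CTXN1 (0.30, adjusted p = 0.175), HAGHL (0.34, adjusted p = 0.124), C9orf172 (0.23) and FAM173A (0.30) did not. With the clone as a block as well, C9orf172 and FAM173A were the 2 not called. Of the 7, SCAND1 was reduced to 0.37, METRN to 0.57 and NTN1 to 0.66 by the correction, while SDAD1 (2.60), GPM6A (1.43) and PTPMT1 (1.23) were not reduced. In all, 8 were called higher in Y537S cells, where 17.2% of all genes rose. Against the same WT controls 11 of the 12 were also called higher with miR-301b and 8 with miR-181c, beside 4.63% and 8.10% of all genes. Compared with the other mimics 3 were called higher (SDAD1, GPM6A and SCAND1), beside 2.39% of all genes.

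Of the 5 reported targets 4 were tested. In the comparison with the control 1 (PHLPP1) fell, beside 10.6% of all genes tested. In that with the other mimics 2 (ERBB2 and PHLPP1) were lower, beside 2.57% of all genes tested there. ERBB2 had 609.8 and 607 CPM after the mimic and 679.5 and 653 CPM in the control, and the groups did not overlap. The fold change was -0.14 ± 0.052 and missed the threshold (adjusted p = 0.0815). With the clone as a block it passed (adjusted p = 0.00997, same fold change). The miR-301b libraries had 823 and 838 CPM and the miR-181c libraries 803 and 804 CPM, and ERBB2 was lower with miR-331 than with these by -0.43 ± 0.057 (adjusted p = 0.00208). ERBB2 was called higher than the control with miR-301b (0.30, adjusted p = 0.0281) and with miR-181c (0.25, adjusted p = 0.0246). The difference thus lay partly in high values after the other mimics. DOHH, with its 6 sites, had 6.397 and 8.97 CPM after the mimic and 7.69 and 8.64 CPM in the control, overlapping ranges (-0.093 ± 0.19, adjusted p = 0.772). The other mimics gave 11.5 and 11.7 and 10.5 and 13 CPM, a difference of -0.61 ± 0.16 (adjusted p = 0.0561).

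PHLPP1 fell, from 18.2 and 16.4 CPM in the control to 12.5 and 13.5 CPM (-0.42 ± 0.12, adjusted p = 0.0252). The call was lost without the miR-331 library of clone D1 (-0.37, adjusted p = 0.173) or D4 (-0.48, adjusted p = 0.0579) or the control of clone D1 (-0.35, adjusted p = 0.1297). PHLPP1 was at 18.2 and 19.4 and 18.8 and 19.7 CPM with the other mimics (-0.56 ± 0.10, adjusted p = 0.012). E2F1 had 57.6 and 50.96 CPM against 49.8 and 51.1 CPM in the control (0.10 ± 0.078, adjusted p = 0.391), with 53.1 and 49.9 CPM after miR-301b and 78.5 and 71.1 CPM after miR-181c. Against the other mimics its difference was -0.20 ± 0.081 (adjusted p = 0.197). NRP2 had at most 0.0799 CPM in the 4 libraries and was not tested. Of the 4, with the GC trend of each library removed, 3 were called lower than the control, beside 3.25% of all genes. These were ERBB2 at -0.45, DOHH at -0.74 (adjusted p = 0.0485) and PHLPP1 at -0.58. E2F1 was at -0.26 and missed the threshold (adjusted p = 0.0662), which it passed when the clone was a block as well (-0.26, adjusted p = 0.0031). ERBB2, DOHH and E2F1 have GC-rich transcripts (60.4%, 68.5% and 61.6%). In Y537S cells none of the 4 passed the threshold, with log2 fold changes of -0.12, -0.41, -0.16 and 0.29 in the same order.

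The 8 largest falls among genes with an 8mer ran from -0.96 to -0.76. The groups did not overlap in any of them, which the choice of called genes made likely. ARHGEF37, whose 2 8mers and 1 7mer-m8 lie in 1 3′UTR, had 85.1 and 82.6 CPM against 156 and 168 CPM in the control (-0.96 ± 0.066, adjusted p = 3.39e-05). It had 139.5 and 150 CPM with miR-301b and 119.5 and 110 CPM with miR-181c, and was called lower than the control with miR-181c (-0.52, adjusted p = 0.00212). None of the other genes of the set was called lower than the control with either mimic in edgeR's test. CEP57 had 30.5 and 34.7 CPM against 65.8 and 59.1 CPM (-0.94 ± 0.088). DNAJC14, a heat shock protein 40 family chaperone of the endoplasmic reticulum, had 70.9 and 75.2 CPM against 131 and 131 CPM (-0.84 ± 0.064). The level of DNAJC14 with the other mimics was 135 and 142 and 139.8 and 140 CPM, close to the control. DESI1, a desumoylating peptidase, went from 29.9 and 26.9 to 17.2 and 15.6 CPM (-0.80 ± 0.10), and had 30.8 and 31.2 and 34.1 and 33.6 CPM with the other mimics. ELOVL7 (-0.80), a fatty acid elongase, ZCCHC24 (-0.79), TXLNA (-0.77), a syntaxin-binding protein, and SLX4IP (-0.76) completed the set. Compared with the other mimics, the 8 differences ran from -0.99 to -0.63 with each gene called, beside 2.57% of all genes called lower. This comparison uses the same miR-331 libraries by which the 8 were chosen, so it is not separate evidence. In Y537S cells, where 15.8% of all genes fell, 6 of the 8 were called lower. DNAJC14 (-0.60, adjusted p = 0.0978) and SLX4IP (-0.18, adjusted p = 0.704) were not.

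**Figure D3:**
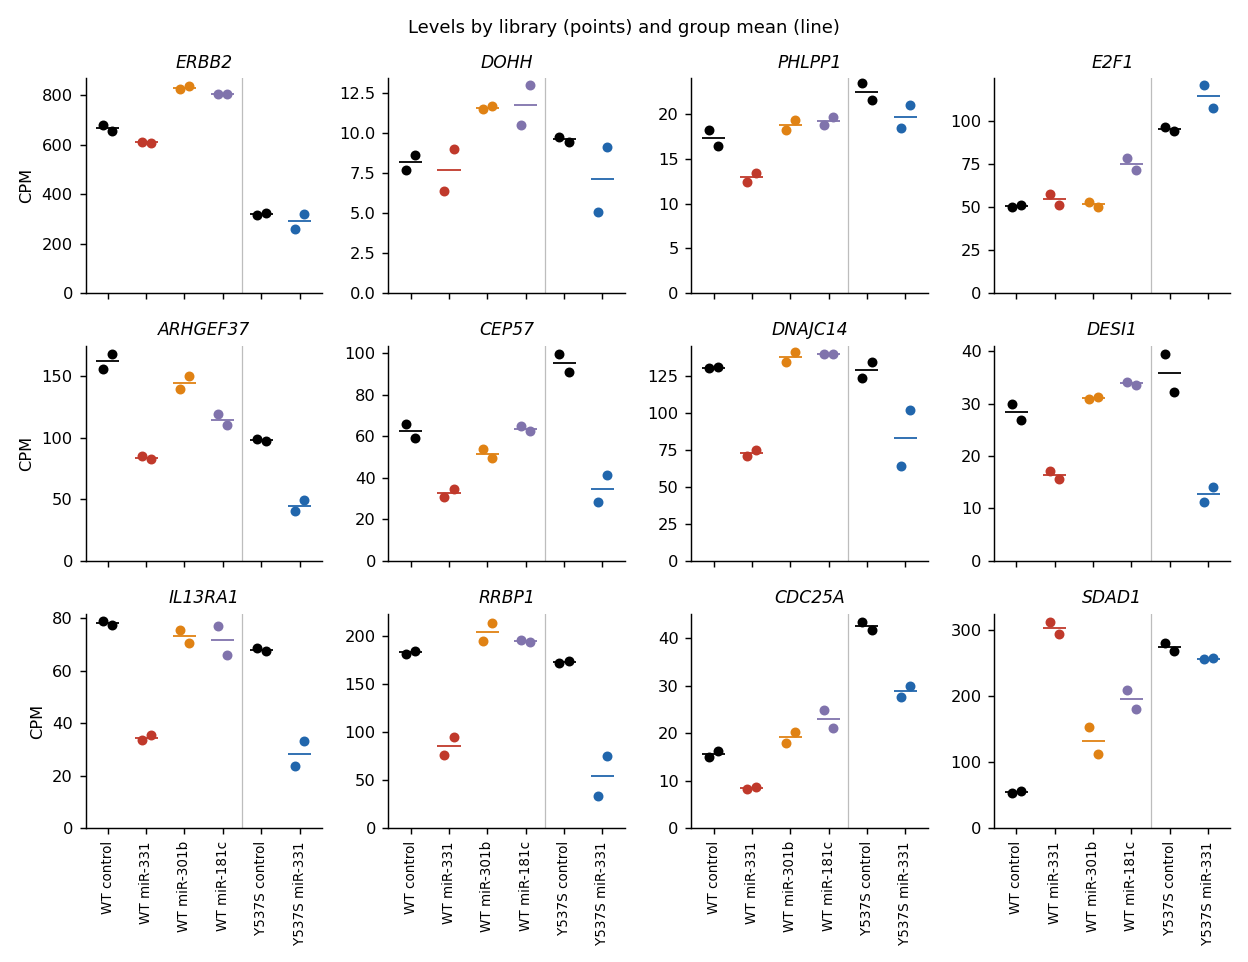
Levels in CPM, on axes from 0, of 12 genes in the 2 libraries (points) and the mean (line) of each WT and Y537S group. The first row holds the reported targets and the second 4 genes with 8mers. In every gene but DOHH, E2F1 and SDAD1 the WT miR-331 libraries lie below all 6 other WT libraries. For SDAD1 the WT control libraries lie below all others.

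The fold changes followed the GC content of the transcript, and this touches every count in the comparison with the control. Tested genes with a transcript were divided by GC content into 10 bins of equal size, with median GC contents from 36.9% to 64.5%. The median log2 fold change went from -0.19 in the lowest bin to 0.50 in the highest. It did so in both clones, from -0.24 to 0.58 in D1 and from -0.13 to 0.45 in D4. In the lowest bin 21 genes rose and 380 fell, and in the highest 842 rose and none fell in edgeR's quasi-likelihood test. Genes that rose had a median GC content of 61.0% and genes that fell 41.4%. Median transcript lengths were 2569 bases among genes that rose and 4914 among genes that fell, against 3148 over all genes tested. The mean transcript GC content of the counted reads was 48.2% and 48.5% in the control libraries and 49.5% and 49.3% in the miR-331 libraries.

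The other WT mimics, which share the 2 control libraries with miR-331, went from -0.20 to 0.38 (miR-301b) and from -0.23 to 0.35 (miR-181c) over the same bins. In Y537S cells, with separate control libraries, the miR-331 medians went from -0.51 to 0.56. Against the control 699 genes rose (4.63%) and 585 fell (3.87%) with miR-301b (8.50% in all), and 1213 rose (8.10%) and 1239 fell (8.28%) with miR-181c (16.4% in all). When miR-331 was compared with the other 2 mimics, the medians stayed between -0.034 and 0.13. They were lowest in bin 5, counted from the lowest GC content, and climbed from there to bin 10. With the GC trend of each library removed, 972 genes were called against the control (6.42%), 480 higher (3.17%) and 492 lower (3.25%). With the clone as a block as well, 2987 were called, 1477 higher (9.76%) and 1510 lower (9.97%). The cause of the trend was not tested, and changes of GC-rich and AT-rich genes after the mimic cannot be told apart from a GC-dependent difference between these libraries.

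**Figure D4:**
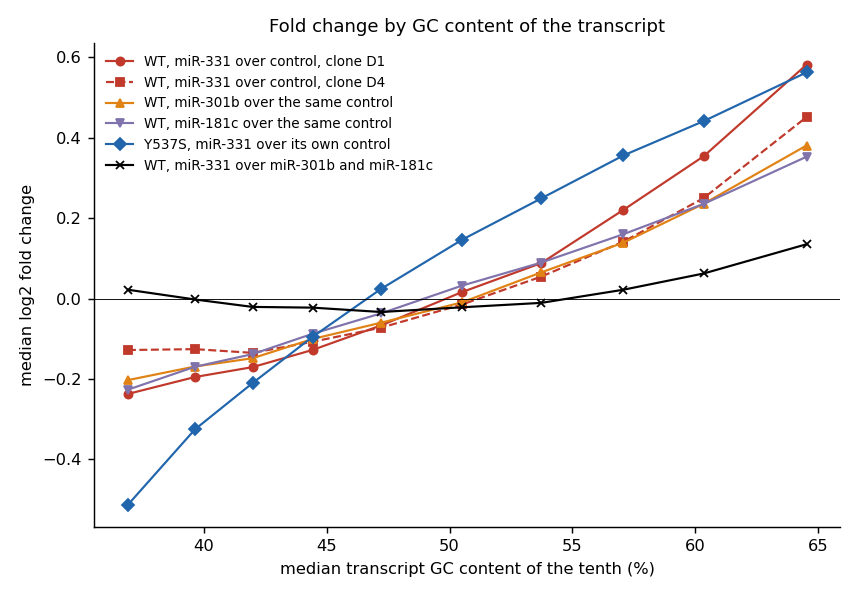
Median log2 fold change (y axis) of the genes in each of 10 bins by transcript GC content (x axis, median GC of the bin in percent), for miR-331 over control in each WT clone, for the other comparisons that use the same or separate control libraries, and for miR-331 over the other 2 mimics. Every comparison with a negative control climbs from left to right. The comparison with the other mimics stays between -0.034 and 0.13, and climbs from bin 5, its lowest, to bin 10.

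Without regard to GC content, genes with a site were no lower than others in the comparison with the control. The median log2 fold change was -0.0013 for the 629 genes whose best 3′UTR site was an 8mer, 0.091 for 1423 genes with a 7mer-m8, 0.013 for 968 with a 7mer-A1, 0.047 for 1689 with a 6mer and -0.023 for 8584 with none. Of the 8mer genes 105 fell (16.7%) and 103 rose (16.4%), where 11.7% of all tested genes with a 3′UTR fell and 15.8% rose. The median GC contents of the classes were 52.8% (8mer), 55.1% (7mer-m8) and 46.7% (none). Genes with 3 or more 7mer-m8 or 8mer sites, 112 in number, had a median of 0.17.

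Within 5 bins of genes by GC content, the order was different. The median of 8mer genes was below that of genes without a 7mer-m8 or 8mer in all 5 bins, with differences of -0.062, -0.075, -0.074, -0.064 and -0.065 from the lowest to the highest GC content. The difference had the same direction in each bin in both clones, from -0.11 to -0.063 in clone D1 and from -0.077 to -0.038 in clone D4. With the other mimics as the reference it was between -0.10 and -0.038, and in Y537S cells between -0.18 and -0.088. In the middle bin, for example, 31 of 140 8mer genes fell (22.1%) and 6 rose (4.29%), where 8.35% of 2239 genes without a site fell and 4.87% rose. For 7mer-m8 genes the differences over the 5 bins ran from -0.089 to 0.00011. Relative to the other mimics they ran from -0.074 to -0.016. These differences are far below the falls of the named genes, and they describe medians over many genes, with no test. The bins were not matched for 3′UTR length. From the lowest to the highest bin, its median was 5254, 5119, 3832, 2705 and 1519 bases for 8mer genes. For genes without a 7mer-m8 or 8mer it was 2318, 1597, 1174, 709.5 and 441 bases. Genes that fell had a median 3′UTR of 2123 bases and genes that rose 689. The part of 3′UTR length in the differences was not tested.

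A site in the coding sequence was also recorded. The 1815 genes with CCAGGGG in the coding sequence and none in the 3′UTR had a median log2 fold change of 0.083 against the control and 0.010 against the other mimics. The 9426 genes with neither had -0.026 and 0.020, and the 449 genes with both had 0.089 and -0.026. RRBP1 was the gene among the 12 largest falls with coding sites alone.

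**Figure D5:**
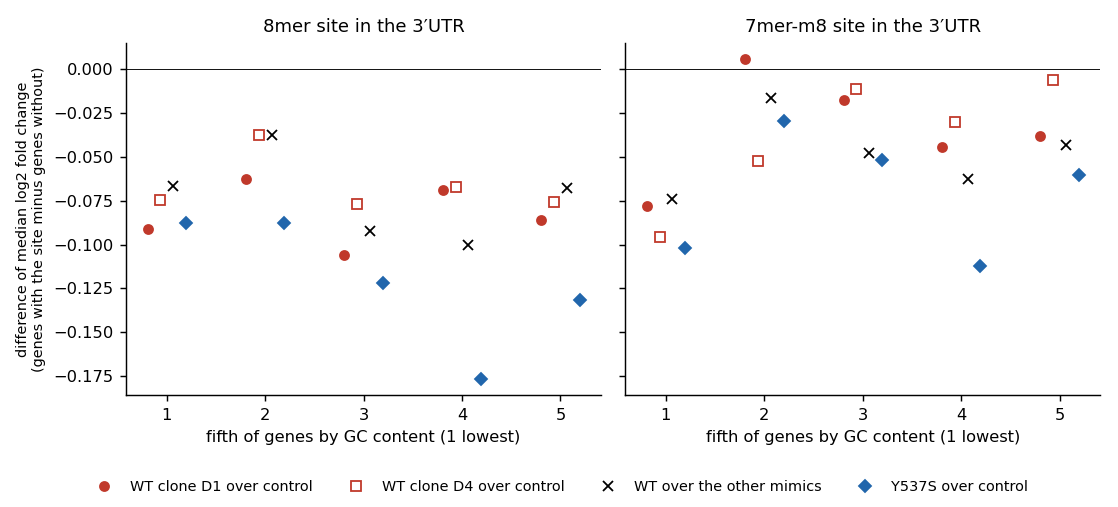
Difference of the median log2 fold change between genes with an 8mer (left) or a 7mer-m8 (right) as best 3′UTR site and genes with neither, within 5 bins of genes by transcript GC content (x axis). Red circles and squares are the 2 WT clones over control, crosses WT over the other mimics and diamonds Y537S over control. All 8mer points lie below 0, and 1 of the 7mer-m8 points, clone D1 in bin 2, lies above it at 0.0057.

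A further 7 genes that the study names were followed. ESR1 had 87.2 and 91.1 CPM after the mimic and 114 and 113 CPM in the control, and fell (-0.36 ± 0.063, adjusted p = 0.00253). It was lower still with miR-301b (71.7 and 69.6 CPM) and miR-181c (75.7 and 70.8 CPM), so that with miR-331 it was higher than with these by 0.30 ± 0.068 (adjusted p = 0.0279). PIK3CB, the catalytic PI3K subunit p110β, fell from 133 and 126 to 95.0 and 90.3 CPM (-0.48 ± 0.065), and stood at 79.1 and 65.9 and 77.0 and 77.5 CPM with the other 2 mimics. KIF14, a kinesin of cytokinesis, fell from 24.7 and 25.1 to 19.2 and 17.7 CPM (-0.44 ± 0.10). For these 3 genes every mimic gave values below the control. KIF14 lost the call without the miR-331 library of clone D4 (-0.38, adjusted p = 0.0713), with the GC trend removed (-0.25, adjusted p = 0.157), and with the block as well (-0.25, adjusted p = 0.0573). TUSC2, a mitochondrial protein and candidate tumor suppressor, rose from 38.3 and 40.5 to 48.8 and 48.4 CPM (0.30 ± 0.075), a call lost without the miR-331 library of clone D1 (adjusted p = 0.102) or D4 (adjusted p = 0.0738), without the control of clone D1 (adjusted p = 0.0696), with the GC trend removed (0.15, adjusted p = 0.212), and with the block as well (adjusted p = 0.108). The mitotic kinase CDK1 (-0.17, adjusted p = 0.0938), the kinase PRKD3 (-0.19, adjusted p = 0.141) and the zinc-finger factor PLAGL2 (-0.047, adjusted p = 0.636) were not called. With the clone as a block CDK1 was called lower (-0.17, adjusted p = 0.0248), and with the GC trend removed it was at 0.025 (adjusted p = 0.868). The study chose several of these genes on its own data, so they are not independent evidence of a direction.

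The gene lists that follow are given beside the 14.2% of all tested genes that rose, the 10.6% that fell and the median log2 fold change of -0.0022; with the GC trend removed 3.17% were higher and 3.25% lower, and with the block as well 9.76% and 9.97%. Of 54 mitosis genes, 19 fell and 1 rose, with a median of -0.19. ANLN, the anillin scaffold of the cleavage furrow, fell from 172 and 172 to 117 and 118 CPM (-0.56 ± 0.058, adjusted p = 0.000195). CENPE, the kinetochore motor, fell from 49.3 and 47.7 to 29.3 and 27.8 CPM (-0.77 ± 0.079). With the GC trend removed 7 of the 54 were lower, with the block as well 11, and the median was then -0.06; their median GC content was 42.0%. Against the other mimics 5 were lower, where 2.57% of all genes were, and the median was again -0.19. In Y537S cells, where 15.8% of all genes fell and 17.2% rose, 17 of them fell and 5 rose.

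Among 40 DNA replication genes, 7 fell and 5 rose against the control (median -0.17), but 14 were lower and none higher than with the other mimics in edgeR's test (median -0.29), where 2.57% of genes tested were lower and 2.39% higher. Against the same control libraries miR-181c had 13 of the 40 higher and 1 lower (median 0.19), and miR-301b 4 higher and none lower in edgeR's test (median 0.069), where 8.10% and 4.63% of all genes rose. Against the control, with the GC trend removed, miR-331 had 3 lower and 1 higher, and with the block as well 10 and 2. PCNA, the sliding clamp, had 73.6 and 70.2 CPM after miR-331 and 93.1 and 96.2 CPM in the control (-0.40 ± 0.064). It had 89.4 and 81.0 CPM with miR-301b and 106 and 96.0 CPM with miR-181c (-0.37 ± 0.076 against both, adjusted p = 0.0179). The thymidine kinase TK1 rose from 61.2 and 69.4 to 92.8 and 90.7 CPM (0.49 ± 0.074), and all WT mimics gave 86.1 to 96.4 CPM. In Y537S cells 8 of the 40 rose and 2 fell, beside 17.2% and 15.8% of all genes.

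Of 24 tested G1 cyclins, CDKs and inhibitors, 7 rose and 4 fell (median -0.09). CDK6 fell from 17.0 and 18.0 to 11.03 and 9.96 CPM (-0.74 ± 0.12), and the pocket protein gene RB1 fell from 105 and 98.7 to 78.8 and 83.7 CPM (-0.33 ± 0.067); without the miR-331 library of clone D1 RB1 was at -0.29 (adjusted p = 0.0764). Of 22 p53 targets 8 rose and 3 fell (median 0.11). PHLDA3, an AKT inhibitor, rose (0.75 ± 0.08) and MDM2, the ligase that degrades p53, fell (-0.39 ± 0.062). In the BCL2 family 6 of 17 rose and none fell in edgeR's test, with a median of 0.18. The anti-apoptotic MCL1 had 369 and 362 CPM against 268 and 252 CPM (0.49 ± 0.057) and the pro-apoptotic BAD 44.7 and 44.2 CPM against 26.0 and 28.7 CPM (0.70 ± 0.085), so members of opposite function rose. After the GC trend was removed 1 BCL2 family gene was higher, and with the clone as a block 1 was higher and 1 lower.

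In the ERBB, PI3K and AKT pathway 6 of 28 genes rose and 6 fell (median -0.11). RPTOR, the substrate adaptor of mTORC1, rose from 46.4 and 44.9 to 72.2 and 69.4 CPM (0.63 ± 0.068), and PIK3CB fell as given above. Removal of the GC trend left 1 higher and 5 lower, and with the block as well 3 and 11. Of 38 tested estrogen response genes 5 rose and 1 fell (median 0.11). The IGF-binding protein IGFBP4 rose from 154 and 174 to 211 and 218 CPM (0.39 ± 0.07) and the retinoic acid receptor RARA from 71.1 and 79.2 to 96.0 and 106 CPM (0.42 ± 0.078). Both lost the call with the block and the GC trend removed, at -0.016 and 0.046. Among the 14 luminal markers 6 rose and 3 fell (median 0.15), with SPDEF, an ETS factor of secretory epithelium, at 0.48 ± 0.06 against the control and -0.011 with the block and the GC trend removed.

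The 40 tested genes of matrix and cell-matrix adhesion had the highest median of the lists with 20 or more tested genes, 0.23, with 14 higher and 3 lower. AGRN, a heparan sulfate proteoglycan of basement membranes, rose from 614 and 666 to 1100 and 1050 CPM (0.74 ± 0.058), and LAMA5, a laminin chain, from 502 and 500.3 to 809 and 742 CPM (0.63 ± 0.057). With the GC trend removed both lost the call, AGRN at 0.13 (adjusted p = 0.121) and LAMA5 at 0.058 (adjusted p = 0.61), and none of the 40 was higher and 2 were lower in edgeR's test. With the block as well 4 were higher and 4 lower, with AGRN again at 0.13 and now called. In the comparison with the other mimics 1 was higher and 1 lower, beside 2.39% and 2.57% of all genes. COL1A1, which also made up most of the fibroblast marker sum, rose from 49.7 and 52.5 to 70.3 and 58.8 CPM (0.33 ± 0.088), but was at -0.029 with the block and the GC trend removed, and the call was lost without the miR-331 library (0.20) or the control (0.29) of clone D1. Of 33 epithelial junction genes 10 rose and 3 fell (median 0.056). The claudins CLDN3 (0.79 ± 0.064) and CLDN4 (0.62 ± 0.054) led the rises, but were at 0.11 (adjusted p = 0.298) and 0.29 (adjusted p = 0.00942) with the GC trend removed. CLDN4 had 508 and 521 and 612 and 671 CPM with the other mimics beside 549 and 526 CPM with miR-331 and 346 and 353 CPM in the control. Of the junction genes 4 were higher and 1 lower with the GC trend removed, and with the block as well 5 and 7. Of 16 tested keratins 6 rose and none fell in edgeR's test (median 0.24), KRT19 by 0.33 ± 0.07 and KRT7 by 0.31 ± 0.061, which were -0.034 and -0.066 with the block and the GC trend removed.

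In cholesterol synthesis 8 of 23 genes fell and 2 rose, with a median of -0.12. HMGCS1, which makes HMG-CoA, fell from 231 and 239.5 to 178 and 195 CPM (-0.34 ± 0.064; -0.27 and adjusted p = 0.0660 without the miR-331 library of clone D1), while the mevalonate pathway kinase PMVK rose from 56.8 and 60.4 to 76.0 and 75.6 CPM (0.37 ± 0.067). Of the 23, 3 were lower with the GC trend removed, and 13 with the block as well, with none higher in edgeR's test in either. HMGCS1 was then at -0.16 and without the block was not called (adjusted p = 0.187). In Y537S cells 7 rose and 5 fell, beside 17.2% and 15.8% of all genes. Of 18 fatty acid synthesis genes 3 rose and 2 fell (median -0.048). The fatty acid synthase FASN (1734 and 1881 to 2438 and 2435 CPM, 0.43 ± 0.053) and the lipogenic regulator SREBF1 (0.51 ± 0.055) rose. Of these, FASN turned to -0.09 with the block and the GC trend removed.

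Of 28 glycolysis and hypoxia genes 7 rose and none fell in edgeR's test (median 0.10), and 2 were higher with the GC trend removed and 9 with the block as well. The glucose transporter SLC2A1 rose from 69.1 and 77.0 to 95.6 and 96.0 CPM (0.39 ± 0.071) and the phosphofructokinase PFKL from 177 and 184 to 246 and 249 CPM (0.45 ± 0.057). Of 33 genes of the ATF4 and unfolded protein responses 10 rose and 2 fell (median 0.14), 4 were higher and 1 lower with the GC trend removed, and 12 and 3 with the block as well. The chaperone PDIA4 went from 164 and 160 to 248 and 235 CPM (0.57 ± 0.059) and had 293 and 299 CPM with miR-301b and 279 and 238 CPM with miR-181c. The pseudokinase TRIB3 rose by 0.46 ± 0.066. Of 22 heat shock genes 5 fell and 3 rose (median -0.091). HSPA8, the constitutive Hsp70, fell from 2390 and 2436 to 1678 and 1721 CPM (-0.51 ± 0.048) and the Hsp90 co-chaperone CHORDC1 fell by 0.66 ± 0.068. Of 51 interferon-stimulated genes 5 rose and 4 fell (median -0.05), IFI6 at 0.68 ± 0.11 and PARP14 at -0.39 ± 0.064.

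Of 31 genes of miRNA processing and silencing 6 fell and 2 rose (median -0.12). None of AGO1 (-0.039), AGO2 (0.13), AGO3 (0.00096) and AGO4 (-0.081) was called against the control in edgeR's test, and none had an unadjusted p under 0.05. AGO2 was at 0.21 with the GC trend removed (adjusted p = 0.157) and was called higher once the clone was a block too (0.21, adjusted p = 0.0257). AGO4 had 23.8 and 23.4 CPM with miR-331 and 24.8 and 24.99 CPM in the control, but 14.6 and 14.2 CPM with miR-301b and 14.5 and 15.8 CPM with miR-181c. TNRC6A fell from 148 and 149.8 to 127 and 124 CPM (-0.25 ± 0.059, adjusted p = 0.0108) and TNRC6B from 144 and 151 to 113 and 123 CPM (-0.32 ± 0.068). Without the miR-331 library of clone D1 neither was called (TNRC6A at -0.27 and TNRC6B at -0.26), nor was TNRC6A without that of clone D4 (-0.23), and with the GC trend removed neither was called (-0.17, adjusted p = 0.101, and -0.21, adjusted p = 0.0949). TNRC6C was at -0.039 ± 0.079. The 2 rises of the list were TARBP2, the Dicer partner (0.54 ± 0.076), and the decapping scaffold EDC4 (0.41 ± 0.065). Their transcripts are GC-rich (60.1% and 59.8%).

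Large gene families were counted as well. Of 508 tested ZNF genes, with a median GC content of 43.1%, 103 fell and 35 rose (median -0.20). Removal of the GC trend left 13 lower and 2 higher, and with the block as well 57 and 12, beside 9.97% and 9.76% of all genes. Against the other mimics 12 were higher and 6 lower, with a median of 0.014. ZNF395 fell (-0.60 ± 0.063), also against the other mimics (-0.91 ± 0.076), and ZNF444 rose (0.81 ± 0.088). Of 227 solute carriers 42 rose and 10 fell (median 0.069), with the riboflavin transporter SLC52A2 at 0.97 ± 0.094 and the iron transporter SLC11A2 at -0.61 ± 0.057. Of the carriers 6 were higher and 5 lower with the GC trend removed, and with the block as well 26 and 19. Of 198 TMEM genes 43 rose and 11 fell (median 0.081), TMEM132A at 0.61 ± 0.057 and TMEM184A at 0.66 ± 0.054; 18 were higher and 4 lower with the GC trend removed, and 39 and 8 with the block as well. Of 37 splicing factors 7 fell and 4 rose (median -0.089), HNRNPA0 at 0.55 ± 0.06 and U2AF2 at 0.32 ± 0.059.

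Of 78 cytoplasmic ribosomal protein genes 27 rose and 3 fell (median 0.069), 16 were higher and 1 lower with the GC trend removed, and 38 and 4 with the block as well. In Y537S cells, where 17.2% of all genes rose and 15.8% fell, 61 rose and 1 fell, with a median of 0.63. RPS28 rose from 81.5 and 90.2 to 130.2 and 133 CPM (0.61 ± 0.069) and RPS18 from 67.5 and 60.4 to 119.8 and 109 CPM (0.84 ± 0.076). Both have near-identical processed copies in the genome, and the handling of reads that align to several places is not given in the sources used here, so their values are uncertain. In the Y537S controls RPS18 had 0.755 and 64.8 CPM, the first far below all other libraries. Of 73 respiratory chain subunits 22 rose and 3 fell (median 0.11), NDUFS7 at 0.81 ± 0.11 and NDUFB7 at 0.76 ± 0.10. Of the subunits 16 were higher and 1 lower with the GC trend removed, and with the block as well 26 and 1. Of 79 mitochondrial ribosomal proteins 18 rose and 6 fell (median -0.029), MRPL41 at 0.70 ± 0.082 and MRPL28 at 0.47 ± 0.071. Of 35 proteasome subunits 9 fell and 3 rose (median 0.0059), 2 were lower and none higher in edgeR's test with the GC trend removed, and 6 and 6 with the block as well, with PSMD6 at -0.37 ± 0.064 and the immunoproteasome subunit PSMB10 at 0.96 ± 0.16. Of 37 replication-dependent histone genes, whose messengers mostly lack a poly(A) tail, 5 rose and 1 fell (median 0.10), HIST1H3H at 0.89 ± 0.18 and HIST1H4H at 0.47 ± 0.11. Both lost the call without the miR-331 library of clone D1 (0.78 and 0.34).

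With the block and the GC trend removed, the following rises named above were no longer called: EDC4 (0.12), BAD (0.16), LAMA5 (0.058), MRPL41 (0.12), NDUFS7 (0.23), PFKL (0.012), PMVK (0.11), SREBF1 (0.075), TMEM132A (0.014), TRIB3 (0.11), U2AF2 (0.0054) and ZNF444 (0.15). Among the falls, RB1 was at -0.14 (adjusted p = 0.0506). Without the block, but with the GC trend removed, none of these was called in edgeR's test, and the calls of FASN (-0.09), HIST1H3H (0.55), HIST1H4H (0.43), MRPL28 (0.19), NDUFB7 (0.26), PSMB10 (0.60), TARBP2 (0.25) and TK1 (0.18) were lost too. Beside those given above, genes that kept the call without the block but moved by more than 1.5 times were PHLDA3 (0.49), RPTOR (0.33), SLC52A2 (0.43), TMEM184A (0.21), MDM2 (-0.22) and PARP14 (-0.26).

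The comparison with the other mimics in WT cells asks which changes go with this miRNA rather than with a mimic as such. Of 15417 genes 764 (4.96%) were called, 368 higher (2.39%) and 396 lower (2.57%). Of the 2149 genes that rose against the control, 127 were also called higher here and 1854 had the same sign. Of 1603 that fell and were tested here, 259 were called lower and 1289 had the same sign. The opposite way, 29 genes higher here were lower than the control, and 6 lower here were higher. Both comparisons use the same 2 miR-331 libraries. With the clone as a block 1571 were called (10.2%), 831 higher (5.39%) and 740 lower (4.80%). Without the miR-331 library of clone D1 91 were called, without that of clone D4 132 and without the miR-181c library of clone D1 359. CDC25A, the phosphatase that activates CDK2 in G1 and S phase, was the lowest by rule, with 8.39 and 8.80 CPM after miR-331, 18.1 and 20.3 CPM after miR-301b and 24.9 and 21.1 CPM after miR-181c (-1.29 ± 0.12, adjusted p = 0.000255). The control libraries had 14.9 and 16.3 CPM, so CDC25A was below control with miR-331 (-0.87 ± 0.13) and not with the others. RRBP1 followed (-1.22 ± 0.092), then IL6R, the IL-6 receptor, with 2 sites in its 3′UTR (-1.13 ± 0.16, adjusted p = 0.0032). IL6R had 11.6 and 17.5 CPM after miR-331, 35.3 and 45.1 CPM after miR-301b, 22.9 and 27.2 CPM after miR-181c and 22.8 and 24.6 CPM in the control. The miR-331 and control libraries of IL6R did not overlap, and against the control IL6R was at -0.71 ± 0.16, or -0.44 (adjusted p = 0.0710) without the miR-331 library of clone D1.

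The highest genes in that comparison differed in which group stood apart. TRIM2, a ubiquitin ligase, had 27.5 and 31.4 CPM with miR-331 and 23.6 and 23.5 CPM in the control, and 19.3 and 18.0 and 8.10 and 12.4 CPM with the other mimics (1.09 ± 0.14, adjusted p = 0.00191). GPM6A was higher with miR-331 than in every other WT group (1.08 ± 0.22), a call lost without the miR-331 (0.86, adjusted p = 0.217) or the miR-181c library of clone D1 (1.03, adjusted p = 0.0579). ENPP5 had 48.9 and 43.5 CPM with miR-331 and 53.4 and 47.4 CPM in the control, whereas miR-301b gave 16.3 and 14.96 CPM and miR-181c 33.9 and 30.6 CPM (1.03 ± 0.089). The difference of TRIM2 and ENPP5 thus lay mainly in low values after the other mimics.

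The same mimic in Y537S cells gave partly the same genes. Of the 2145 genes that rose in WT cells and were tested in Y537S cells, 1352 (63.0%) rose there, which is 52.8% of the 2563 that rose in Y537S cells. Of 1602 that fell in WT cells 847 (52.9%) fell in Y537S cells, or 36.0% of the 2350 that fell there. In the opposite direction 103 of the WT rises were lower in Y537S cells and 6 of the WT falls were higher. The 2 genotypes share no library. Over 10055 genes at that level or above the fold changes had a Pearson r of 0.60 across genes, and over all 14489 tested in both 0.38; the GC trend is present in both. The difference of the responses was called for 1557 of 15666 genes (9.94%), 543 with a higher change in Y537S cells (3.47%) and 1014 with a lower one (6.47%). This count was 5345 with the clone as a block. With DESeq2, 2296 were called, 49.0% of them higher, against 34.9% in edgeR and 44.6% with RLE size factors. Leaving out each of the 8 libraries in turn gave 283 to 2378, lowest without the WT control of clone D4 and highest without the Y537S miR-331 library of clone 2; without another WT library it was 315 (miR-331, D1), 380 (miR-331, D4) or 505 (control, D1), and without another Y537S library 1019 (miR-331, clone 1), 893 (control, clone 1) or 776 (control, clone 2).

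The 3 genes with the lowest difference lost nearly all of their level in Y537S cells and not in WT cells. COL7A1, the anchoring fibril collagen, went from 17.4 and 20.7 to 0.599 and 0.944 CPM in Y537S cells and from 30.0 and 26.8 to 38.5 and 38.8 CPM in WT cells (difference -5.05 ± 0.26, adjusted p = 5.48e-05). SEC31B, a COPII coat gene, went from 11.3 and 13.2 to 0.375 and 0.993 CPM in Y537S cells and from 20.7 and 24.4 to 26.2 and 26.1 CPM in WT cells (-4.35 ± 0.40). SLC16A8, a lactate transporter, went from 6.79 and 10.7 to 0.450 and 1.11 CPM and from 21.7 and 21.5 to 32.2 and 33.7 CPM (-4.07 ± 0.44). In WT cells COL7A1 (0.44) and SLC16A8 (0.61) were called higher and SEC31B was not called (0.21). The first 2 were no longer called and turned sign with the GC trend removed, to -0.061 (adjusted p = 0.765) and -0.035 (adjusted p = 0.867). Among the genes with the highest difference were GLUD2 (0.99 ± 0.23) and MIR3654 (0.91 ± 0.15), neither of them called in WT cells (-0.13 and -0.05). The call of GLUD2 was lost in 7 of the 8 fits with 1 library left out, at differences of 0.77 to 1.08, and that of MIR3654 in 3, at 0.90 to 0.93. Counts at the miRNA hairpin gene MIR3654 cannot be told apart from those of an overlapping transcript. ESR1 fell by 0.36 in WT cells and its change in Y537S cells was -0.33 ± 0.27, a difference of 0.01 ± 0.31 (adjusted p = 0.989).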

How the data were processed

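Poly(A) RNA of T-47D clones was sequenced from stranded libraries 24 h after transfection. The values that the authors deposited were raw counts per gene. Per the study's methods and the submitters' processing notes, HISAT2 alignments to hg19 were converted with SAMtools, and featureCounts (Subread) assigned them to the UCSC Known Genes models. Versions, the strand setting and the handling of reads that align to several places are not given in the sources used here.

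Genes were tested with edgeR 4.0.16 (quasi-likelihood test, TMM normalization, filterByExpr, R 4.3.3) on the 4 WT libraries, with Benjamini-Hochberg adjustment over all genes tested; "called", "rose" and "fell" mean an adjusted p under 0.05, and an SE is the fold change over the square root of F. All adjusted p-values are from edgeR unless DESeq2 (1.42.0) is named. The comparison with the other mimics used 6 libraries, and the difference between genotypes used 8 in an interaction term. CPM were computed on effective library sizes, and log2 CPM with a prior count of 2. The GC correction fitted log2 CPM on transcript GC content in each library (lowess, span 0.3) and entered as an offset. GC contents, lengths and sites came from GENCODE for GRCh37, which is not the annotation that was counted; 22494 of the 26364 genes matched by symbol and 1363 by an older symbol. Figures were drawn with matplotlib 3.10.9. Scripts were tested on simulated data.

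The libraries of a clone are named alike in the count table (D1 and D4), so the pairing comes from the cells. The deviations of same-clone libraries from their group means had a correlation of 0.17. The fit without the clone is the main one, and that with it an alternative, which leaves 1 residual degree of freedom. Libraries of a group were not duplicates: chi-square per gene was 12.2 between the miR-331 and 11.2 between the control libraries. P-values measure the spread between 2 clones only.

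Genes named are the 12 largest rises and falls among called genes whose mean level reached 3 log2 CPM, the 8 largest falls with an 8mer, reported targets and genes the study names, the 2 called members of each gene list with the smallest p, the 3 largest in each direction of the other comparisons, and the AGO and TNRC6 genes. Members and lists were chosen with earlier results of these data known. Alternatives were other size factors, DESeq2, no filter, a minimum fold change of 1.2, an adjusted p under 0.01, all 8 WT libraries in 1 fit, the clone as a block, the GC correction and each library left out. Some genes that these rules or the study name are not reported here.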

Additional observations from a re-analysis of the deposited data

Results flagged for a closer look

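The response to the miR-331-3p mimic differed between Y537S and WT cells for 1557 genes in the interaction term of edgeR, and 16 genes named above were among them. Values are the log2 fold change in Y537S minus that in WT cells. It was below 0 for COL7A1 (-5.05), SEC31B (-4.35), SLC16A8 (-4.07), the ribosome assembly gene SDAD1 (-2.52), TMEM184A (-1.58), the laminin chain LAMA5 (-1.37), the kinetochore motor CENPE (-1.33) and the silencing scaffold TNRC6A (-0.47). It was above 0 for GLUD2 (0.99), MIR3654 (0.91), PTPMT1 (0.77), RPTOR (0.64), TK1 (0.59), KRT7 (0.56), MRPL28 (0.52) and PMVK (0.48). For SDAD1 the difference lay in the control libraries, which were low in WT cells and not in Y537S cells. The GC trend was steeper in Y537S cells than in WT cells, and its part in these differences was not tested.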

How the results depend on the processing

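The count of genes called against the control stayed within 1.5 times of 3755 with DESeq2 (3483), RLE size factors (3768), no filter (4489), all 8 WT libraries (2777), the replicate block (5599) and the block with GC correction (2987). It was 972 with GC correction, 901 for a fold change over 1.2, 1959 at an adjusted p under 0.01, and 1550 to 3628 with 1 library left out. With the replicate block 1571 genes were called against the other mimics and 5345 for the difference between genotypes; both exceed 1.5 times the main count, and the former was also 1202 with DESeq2, 1544 without a filter and 91 to 840 with 1 library left out. The latter was 283 to 2378 with 1 library left out. The median difference between genes with and without a site (0.070) was 0.00996 for 8mers, -0.047 with GC correction, -0.046 with block and GC correction, and 0.060 to 0.094 in single clones.

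Of 1320 alternative values for the 110 tested genes, 1176 kept direction and side of the threshold, 100 lost the call, 9 gained it and 35 changed sign. With GC correction, and with it and the block, AGO1 was 0.046 and 0.048, AGO4 0.026 and 0.026, CDK1 0.025 and 0.024, COL1A1 -0.026 and -0.029, COL7A1 -0.061 and -0.058, E2F1 -0.26 and -0.26, ENPP5 0.060 and 0.059, FASN -0.090 and -0.090, IGFBP4 -0.016 and -0.016, KRT19 -0.034 and -0.034, KRT7 -0.066 and -0.066, SLC16A8 -0.035 and -0.035, and SPDEF -0.010 and -0.011. AGO3 was -0.0031 with DESeq2 and -0.0036 with RLE size factors. With 1 library left out, values ran from -0.13 to 0.053 for AGO1, -0.025 to 0.030 for AGO3, -0.36 to 0.13 for DOHH and -0.11 to 0.035 for TNRC6C. Why these changed was not tested.

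Limits are 2 clones per group, library GC contents that differ between mimic and control, and transcripts taken from another annotation than the counts. A lone library in a leave-one-out fit is assumed to vary like the other group.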
